A study of Mus musculus with 14 samples.

Results

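The ADAM and ADAMTS genes encode zinc-dependent proteases of the cell surface and the extracellular matrix. They were chosen by name, as the protein-coding genes of the GRCm38 RefSeq annotation whose symbol is Adam with a number and an optional letter, or Adamts with a number. The rule found 53 of 21887 protein-coding genes on assembled chromosomes, 34 ADAM and 19 ADAMTS genes. The family was put forward because Adam12 was already known to hold many BMI1 peaks for its length in these lists, so the homeostasis values of Adam12 are a description and support nothing.

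The cells were Sca1+CD45- cardiac cells, enriched with magnetic beads from C57BL/6 mice that were 6 to 8 weeks old. ChIP-seq (sequencing of immunoprecipitated chromatin) mapped BMI1, which belongs to Polycomb repressive complex 1, and H2AK119ub, the ubiquitin mark that such complexes place on histone H2A. Mice of the Damage group had received a single intraperitoneal dose of paraquat (20 mg/kg), a herbicide that generates superoxide, and mice of the Homeostasis group PBS alone. The 4 groups (2 treatments, each with both antibodies) had 3 libraries apiece, with 1 deposited peak list per library. Growth of such cells in 3% oxygen is also described in the labels, but not whether it preceded ChIP-seq. They do not say whether replicates came from separate mice, or how many mice went into a library. Homeostasis lists held 2000 to 13487 peaks and Damage lists 19 to 68. Sequencing depth is unknown, so a gene without a peak is one at which none was listed, and may still carry the mark. A peak list cannot serve to check the sorted cell type against marker expression.

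ADAM proteins are membrane-anchored and combine a metalloprotease domain with a disintegrin domain. Active members cut the outer part of other membrane proteins free, a step called shedding, which releases growth factors and starts Notch signalling. ADAMTS proteins are secreted, carry thrombospondin repeats and cut matrix molecules such as versican, aggrecan and procollagen. In the heart they shape valves and the fibrous matrix laid down by stromal cells. Polycomb complexes are best known for silencing developmental genes from CpG-rich start sites.

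Start sites were examined first. The RefSeq table of start windows (250 bases before to 50 after the start, build GRCm38.p6) held 28 of the 53 genes, with 30 windows. Adam5, Adam12, Adam32, Adamts6, Adamts15, Adamts16 and Adamts19, all genes with recurrent peaks, had no listed window, so their starts were not examined. Regions lay 0.876 kb beyond an end of Adam5, 1.97 kb beyond an end of Adamts16 and 3.50 kb inside an end of Adamts19. Whether these ends are starts was not known here. None of the 30 windows overlapped a homeostasis peak, and none of the 30 starts had a peak centre within 5 kb. Among all protein-coding genes 17 of 21263 windows (0.0800%) held a peak, and 4.73% of starts had a peak centre within 5 kb. The nearest homeostasis peak centre lay 7.34 kb or more from every listed ADAM or ADAMTS start, with a median of 49.6 kb, against 67.9 kb over all listed starts. The dinucleotide CG, which reads the same on both strands, was counted in each 300-base window. It occurred 10 or more times in 14 of the 30 windows (46.7%), against 56.8% of windows of all protein-coding genes. The 250 bases before the start of 4 genes are printed as examples of starts without a peak, with and without CG, in capitals for CG. They do not reach the top of the range: the 300-base window of Adamts14 held 44 CG, against 32 for Adam10. Adam23 and Adamts9 had peaks deep inside the gene, Adam10 had none, and Adam34l had a peak in the gene body and a start without CG.
Adam23: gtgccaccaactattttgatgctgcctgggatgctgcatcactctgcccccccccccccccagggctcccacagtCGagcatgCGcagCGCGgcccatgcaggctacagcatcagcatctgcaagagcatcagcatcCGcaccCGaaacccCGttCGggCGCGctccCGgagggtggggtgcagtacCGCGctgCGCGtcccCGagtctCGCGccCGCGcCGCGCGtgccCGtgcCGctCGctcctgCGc
Adamts9: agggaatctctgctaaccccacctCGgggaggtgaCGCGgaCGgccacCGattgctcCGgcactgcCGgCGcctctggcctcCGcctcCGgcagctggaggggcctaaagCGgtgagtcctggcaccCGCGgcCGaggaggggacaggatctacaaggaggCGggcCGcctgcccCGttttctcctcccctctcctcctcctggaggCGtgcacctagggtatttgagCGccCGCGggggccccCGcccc
Adam10: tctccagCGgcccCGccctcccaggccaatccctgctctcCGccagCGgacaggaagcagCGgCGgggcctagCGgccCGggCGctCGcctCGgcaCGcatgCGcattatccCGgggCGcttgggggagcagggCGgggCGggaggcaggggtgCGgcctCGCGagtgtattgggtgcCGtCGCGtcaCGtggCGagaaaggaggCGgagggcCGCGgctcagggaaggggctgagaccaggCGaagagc
Adam34l: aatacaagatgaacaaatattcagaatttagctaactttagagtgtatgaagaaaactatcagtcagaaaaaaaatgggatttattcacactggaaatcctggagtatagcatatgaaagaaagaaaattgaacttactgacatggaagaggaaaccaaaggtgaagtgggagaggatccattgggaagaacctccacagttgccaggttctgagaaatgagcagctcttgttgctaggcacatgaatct
These stretches lie at chr1:63445641-63445890 (+ strand, 27 CG), chr6:92943535-92943784 (- strand, 22 CG), chr9:70678732-70678981 (+ strand, 29 CG) and chr8:43703425-43703674 (- strand, 0 CG). From these starts the nearest peak centre was 29.2 kb away for Adam23, 25.7 kb for Adamts9, 59.3 kb for Adam10 and 46.1 kb for Adam34l.

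At homeostasis a minority of the family carried peaks. A gene was counted when a peak overlapped its body or the 5 kb on either side by 1 bp or more. By this count 20 of the 53 genes (37.7%) had a peak in at least 1 of the 6 homeostasis lists, and 33 had none. The background for this rule was 19.3% of all protein-coding genes, which is not matched for length. From these 33 genes the nearest homeostasis peak lay 7.29 to 501 kb away, with a median of 73.3 kb. A BMI1 peak in 2 or more of 3 libraries was found for 8 genes, Adam5, Adam12, Adam22, Adam23, Adam32, Adamts6, Adamts15 and Adamts19. The background for this rule was 7.34% of all protein-coding genes. An H2AK119ub peak in 2 or more of 3 libraries was found for 10 genes, against a background of 9.63%. These were Adam5, Adam12, Adam22, Adam23, Adam32, Adamts6, Adamts9, Adamts16, Adamts17 and Adamts19, so 7 genes met the rule with both antibodies. The count fell to 5 for BMI1 without BMI1 replicate 2, and to 4 for H2AK119ub without H2AK119ub replicate 2 or without replicate 3, with both remaining libraries then required.

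The genes of the family were longer than most, with a median of 37.2 kb against 17.2 kb for all protein-coding genes and 114 kb for the ADAMTS genes alone. Longer genes hold more peaks in these lists, so counts were set beside those of other genes in the same of 10 length classes. At the rate of those classes, 6.77 of the 53 genes would have a BMI1 peak and 8.68 an H2AK119ub peak in 2 or more libraries. The observed 8 and 10 genes were 1.18 and 1.15 times these numbers. Against the 200 genes nearest in length to each gene the ratios were 1.29 and 1.22. Adam12, for which the family was put forward, is among the genes counted for both antibodies, here and in the longest class. These gene counts were not repeated without it. All 19 genes in the 5 shortest classes lacked a peak by this rule, where the class rate gives 0.547 genes for BMI1 and 0.689 for H2AK119ub. Of the 14 genes in the longest class, 6 (42.9%) had a BMI1 peak and 9 (64.3%) an H2AK119ub peak. This class runs from 109 to 2390 kb, while the longest gene of the family has 342 kb. The rate of the class thus includes much longer genes. The exact 95% binomial intervals, 17.7 to 71.1% and 35.1 to 87.2%, contain the 33.6% and 41.6% of other genes of that class. These intervals cover only the counting of genes.

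**Figure D1:**
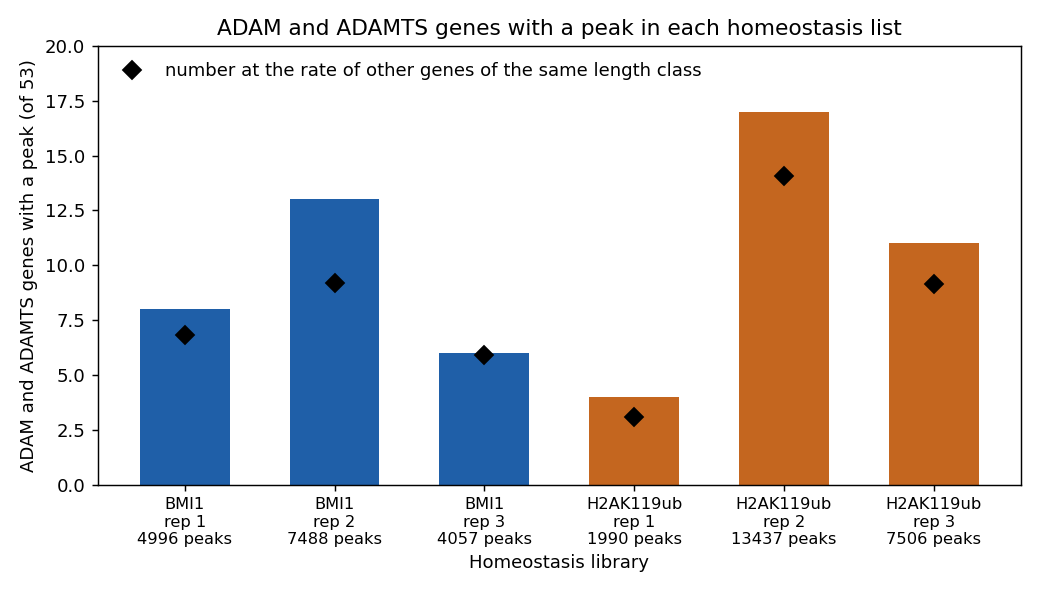
Bars show the number of the 53 ADAM and ADAMTS genes (y axis) with a peak in each homeostasis library (x axis; blue BMI1, orange H2AK119ub), and diamonds the number at the rate of other genes of the same length class. The bars range from 4 genes in the shortest list to 17 in the longest, and every bar ends above its diamond, by the most in BMI1 replicate 2 (13 against 9.19). Adam12, for which the family was put forward, is 1 gene of every bar.

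Single libraries gave the same picture, as the plot of genes with a peak in each homeostasis list shows. In BMI1 replicate 1, 8 of the 53 genes had a peak, against 6.8 at the rate of their length classes (background 7.48% of all protein-coding genes). In BMI1 replicate 2, 13 genes had one, against 9.19 (background 10.3%), and in BMI1 replicate 3, 6 genes, against 5.90 (background 6.46%). The library with the fewest peaks, H2AK119ub replicate 1, had 4 genes with a peak, against 3.07 (background 3.32%). The longest list, H2AK119ub replicate 2, had 17, against 14.1 (background 16.7%), and H2AK119ub replicate 3 had 11, against 9.14 (background 10.4%). The ratio to the class rate was 1.20 ± 0.200 for BMI1 (SD, n = 3) and 1.24 ± 0.0545 for H2AK119ub, so for BMI1 the distance from 1 was about the size of the spread between libraries. Adam12 is 1 of the genes counted in every library, and these counts were not repeated without it. In BMI1 replicate 3 and H2AK119ub replicate 1 the excess over the class rate was less than 1 gene.

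Peaks rather than genes were then counted. The 6 homeostasis lists placed 88 peaks in the family, of which Adam12 alone held 22 (25%). Set against the number given by list size and covered length, the family held 1.42 ± 0.0210 times as many BMI1 peaks (SD, n = 3, range 1.41 to 1.45). For H2AK119ub the ratio was 1.30 ± 0.154 (range 1.18 to 1.48). Without Adam12 the ratios were 1.07 ± 0.0477 for BMI1 and 1.03 ± 0.0717 for H2AK119ub. Without the gene for which the family was put forward, the other genes together thus held about as many peaks as their length gives, although single genes among them, such as Adam5 and Adam23, held more.

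**Figure D2:**
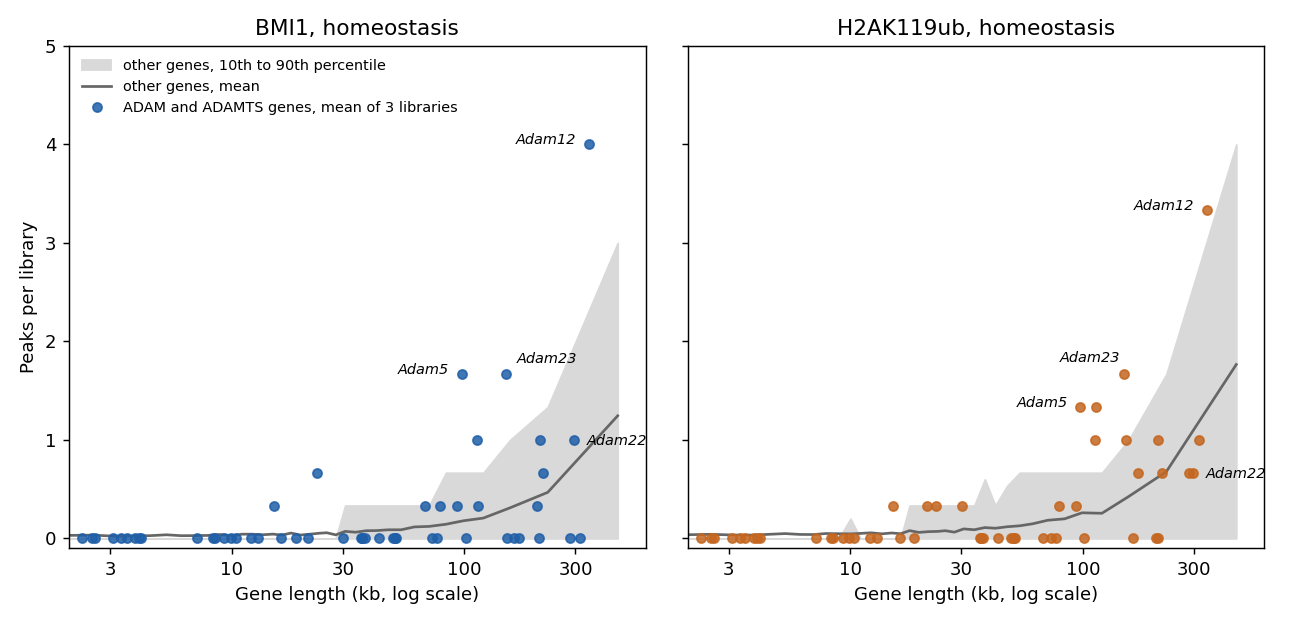
Each point is one ADAM or ADAMTS gene, with its length (x axis, kb, log scale) and its mean number of peaks per homeostasis library (y axis), for BMI1 on the left and H2AK119ub on the right; the line is the mean and the band the 10th to 90th percentile of other protein-coding genes in 40 length classes. Above the band in both panels are Adam5, Adam12, Adam23, Adam32 and Adam34, joined by Adamts15 for BMI1 and by Adamts16 and, at its edge, Adamts18 for H2AK119ub; the other genes lie at 0 or inside it.

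The sheddases, the group of ADAM proteases best known for releasing growth factors and receptors, had 1 of 9 genes with a peak in 2 or more libraries, for either antibody. The rate of their length classes gives 0.894 genes for BMI1 and 1.20 for H2AK119ub. The gene was Adam12 (chromosome 7, 133883199 to 134225097), a protease expressed by mesenchymal cells that can release heparin-binding EGF. The 3 BMI1 libraries listed 4, 5 and 3 peaks there and the 3 H2AK119ub libraries 2, 5 and 3. Every homeostasis list thus held at least 2 peaks, and BMI1 and H2AK119ub overlapped in their counts. The BMI1 mean was 4 ± 1 peaks (SD, n = 3), 5.61 times the number given by list size and gene length. The H2AK119ub mean was 3.33 ± 1.53 peaks (SD, n = 3), 3.37 times that number. Of the 200 other protein-coding genes nearest in length, 199 had fewer than the 22 homeostasis peaks of Adam12. Their median was 4 peaks, 35 of them had none and the highest had 23.

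Adam12 held 6 separate regions, where peaks of different lists that overlapped were merged. The regions at chromosome 7, 134029143 to 134029308 and 134198155 to 134198275 were found in all 6 lists. The first also overlaps Gm39103, an annotated lncRNA gene. A region at 134010672 to 134010787 was found in 5 lists, all but H2AK119ub replicate 1. The other 3 regions were found in 1 or 2 lists, and a pair of them, at 134062185 to 134062287 (BMI1 replicates 1 and 2) and 134062327 to 134062427 (H2AK119ub replicate 2), lay side by side without overlap. All 6 lay inside the gene, 26.9 kb or more from its nearer end.

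The other sheddases had few or no peaks. Adam19, which acts in heart valve and septum formation, had 1 peak in BMI1 replicate 2 and 1 in H2AK119ub replicate 2, both at one region 20.4 kb inside the gene. Adam9 had a single peak, in BMI1 replicate 1. No peak was listed in Adam8, Adam10, Adam15, Adam17, Adam28 or Adam33. Adam10 and Adam17 are the main sheddases of Notch receptors and of tumour necrosis factor, respectively. The nearest homeostasis peak lay 25.9 kb from Adam10 and 67.8 kb from Adam17. A count of 0 was also the most common one among genes of their length: 118 of the 200 genes nearest in length to Adam10, and 149 of those nearest to Adam17, had no homeostasis peak.

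Among the neural ADAMs, which lack protease activity and serve as receptors at synapses, 2 of 3 had a peak in 2 or more libraries with both antibodies, against 0.711 (BMI1) and 0.888 (H2AK119ub) at the rate of their length classes. Adam23 (chromosome 1, 63445717 to 63596111) held 1, 2 and 2 BMI1 peaks and 0, 3 and 2 H2AK119ub peaks. All lists but H2AK119ub replicate 1, the shortest list, thus had a peak there. The mean of 1.67 ± 0.577 BMI1 peaks was 5.13 times the number given by length, and 197 of the 200 genes nearest in length had fewer homeostasis peaks. A region at chromosome 1, 63576522 to 63576627 was found in 5 lists and one at 63475088 to 63475221 in 4 lists. Adam22 (chromosome 5, 8072347 to 8368312) held 2, 1 and 0 BMI1 peaks and 0, 1 and 1 H2AK119ub peaks. Its peaks recurred little: none of its 3 regions was found in more than 2 lists, and 109 of the 200 genes nearest in length had fewer peaks. Adam11 had no peak.

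The sperm and testis ADAMs, which act mainly in sperm maturation and in binding of sperm to the egg, had 2 of 22 genes with a peak in 2 or more libraries, again with both antibodies. The rate of their length classes gives 1.31 genes for BMI1 and 1.73 for H2AK119ub. Both lie in a row of 5 ADAM genes on chromosome 8, in the order Adam18, Adam3, Adam5, Adam32 and Adam9, with gaps of 0.693 to 11.8 kb between neighbours. Adam5 (24727093 to 24824369) held 1, 2 and 2 BMI1 peaks and 1, 1 and 2 H2AK119ub peaks. These were 7.67 times the BMI1 and 4.43 times the H2AK119ub peaks given by list size and gene length. Both multiples are larger than for Adam12, but in a shorter gene few peaks suffice for this. Adam34, with 1 peak for each antibody, had 6.52 and 4.70. Of the 200 genes nearest in length to Adam5, 197 had fewer homeostasis peaks. A region 0.876 kb beyond its higher-coordinate end (24825188 to 24825302), in the gap before Adam32, was in all 6 lists. The body of Adam5 held 1 region in 3 lists, so within the gene body alone its means were 0.667 BMI1 and 0.333 H2AK119ub peaks. Adam32 (24836143 to 24948918) had exactly 1 peak in each of the 6 lists, all at the same region (24943642 to 24943786), 5.20 kb inside its higher-coordinate end. Within 10 kb rather than 5 kb this region also counted for Adam9, whose means were then 1.33 BMI1 and 1 H2AK119ub peaks per library, in place of 0.333 and 0. Adam18 and Adam3, at the other end of the row, had no peak within 5 kb, and the nearest lay 78.3 and 52.7 kb away.

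Adam34 lies inside Adam34l on chromosome 8, and a single region in BMI1 replicate 2 and H2AK119ub replicate 2 (43649970 to 43650074) counted for both genes. The remaining 18 sperm and testis genes had no homeostasis peak. The whole group has a median length of 8.35 kb, but longer genes such as Adam18 (72.5 kb) and Adam2 (50.5 kb) are among those without a peak. Adam6a and Adam6b lie inside the immunoglobulin heavy chain locus Igh on chromosome 12, where Damage lists also held peaks. The Damage lists had 28 peaks in Igh in all (0 to 13 per list) and the Homeostasis lists 56 (3 to 17 per list). None lay within 5 kb of either gene: the nearest Damage peak was 38.8 kb from Adam6a and 93.4 kb from Adam6b, and the nearest Homeostasis peak 70.0 and 15.7 kb.

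**Figure D3:**
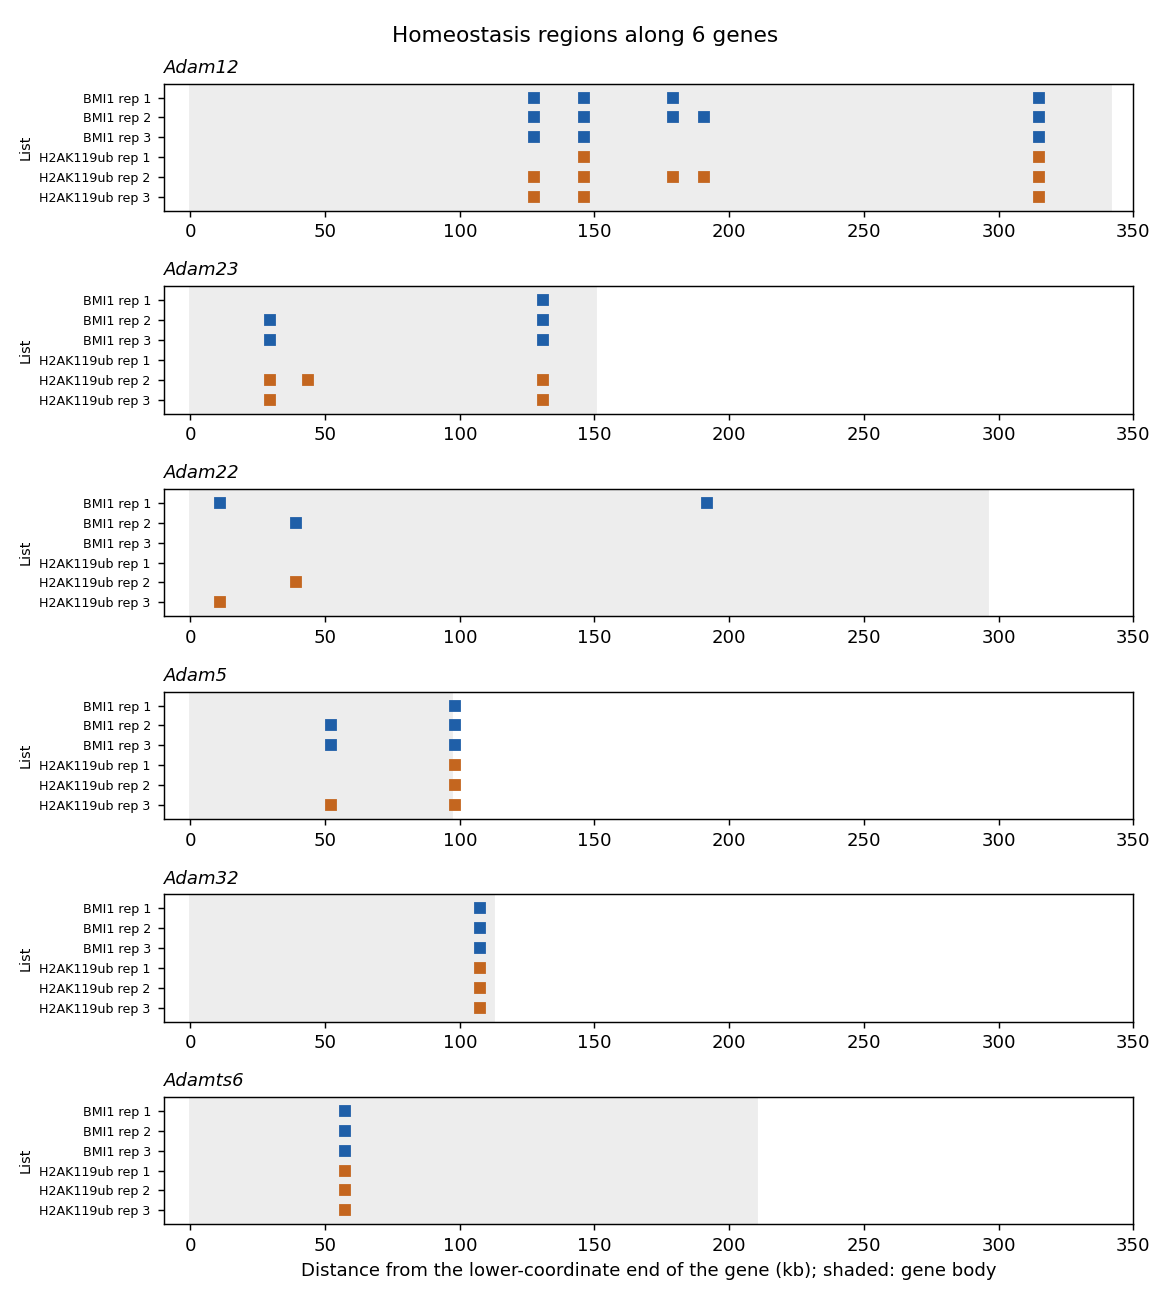
Squares mark the homeostasis regions of 6 genes by their distance from the lower-coordinate end of the gene (x axis, kb), with a row for each list (blue BMI1, orange H2AK119ub) and the gene body shaded. Adam12, Adam5, Adam32 and Adamts6 each have a region in all 6 rows, Adam23 one in 5 rows, and Adam22 none in more than 2 rows; the adjacent Adam12 regions near 179 kb fall on the same column.

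The ADAMTS genes that cleave versican and aggrecan, 7 in number, had 1 gene with a BMI1 and 1 with an H2AK119ub peak in 2 or more libraries. The rate of their length classes gives 0.881 and 1.12 genes. Adamts15 (chromosome 9, 30899155 to 30922452) held 1, 1 and 0 BMI1 peaks and 0, 1 and 0 H2AK119ub peaks, all at one region. Adamts9, a versican protease needed in heart valve development, held no BMI1 peak and 0, 1 and 1 H2AK119ub peaks. Its 2 peaks lay at separate regions (chromosome 6, 92904462 to 92904562 and 92917802 to 92917902), so they did not repeat each other. Adamts8 had 1 peak in H2AK119ub replicate 3. Adamts1, Adamts4, Adamts5 and Adamts20 had none, with the nearest homeostasis peak 21.0 kb from Adamts1 and 85.3 kb from Adamts5. At 164 kb Adamts20 is a long gene without a peak, and 73 of the 200 genes nearest to it in length also had none.

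The procollagen-processing genes Adamts2, Adamts3 and Adamts14, whose products trim the amino-terminal end of fibrillar procollagens, had no gene with a peak in 2 or more libraries, where the rate of their length classes gives 0.781 for BMI1 and 0.991 for H2AK119ub. Adamts2 held 1 peak, in BMI1 replicate 2, and Adamts3 and Adamts14 held none. Adamts3 is 210 kb long, and 68 of the 200 genes nearest in length had no homeostasis peak either. Of the genes that cleave cartilage oligomeric matrix protein, Adamts12 had 2 peaks in H2AK119ub replicate 2 alone and Adamts7 none. Adamts13, the protease of von Willebrand factor, had none.

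The remaining ADAMTS genes were the group in which peaks were most widespread: all 6 had a peak in at least 1 homeostasis list, 2 with BMI1 and 4 with H2AK119ub in 2 or more libraries. Their median length is 181 kb, and the rate of their length classes gives 1.73 genes for BMI1 and 2.15 for H2AK119ub in 2 or more libraries. For a peak in at least 1 list the background was 19.3% of all protein-coding genes. Among the 200 genes nearest in length to each, between 30 (Adamts10) and 160 (Adamts17) also had such a peak. Adamts6 (chromosome 13, 104286518 to 104496695), a matrix protease linked to heart development, had 1 peak in each of the 6 lists. All of them fell on the same region (104343706 to 104343826), 57.2 kb inside the gene. Adamts19 (chromosome 18, 58835992 to 59053682) held 0, 1 and 1 BMI1 peaks and 0, 1 and 1 H2AK119ub peaks, all at a region 3.50 kb inside its lower-coordinate end. Adamts16 (chromosome 13, 70727798 to 70841845) held 0, 1 and 0 BMI1 peaks and 0, 2 and 2 H2AK119ub peaks. Adamts17 held no BMI1 peak and 0, 2 and 1 H2AK119ub peaks. The 3 peaks of Adamts18 and the 1 peak of Adamts10 were all in H2AK119ub replicate 2, the longest list. Over the whole family, 6 genes had peaks in a single list, and for 3 of these it was that list.

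**Figure D4:**
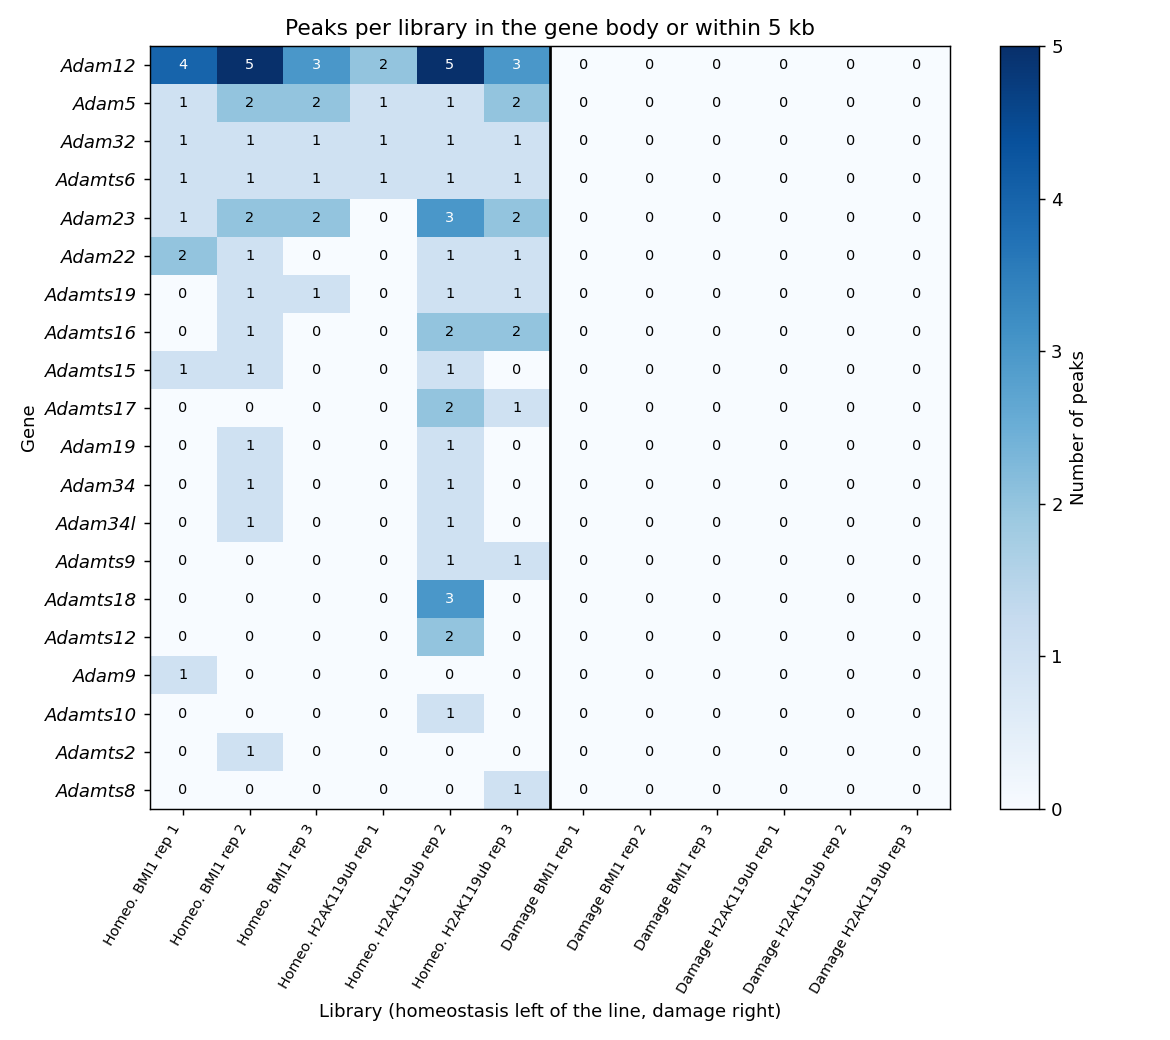
The number of peaks is shown by colour and digit for the 20 ADAM and ADAMTS genes with a homeostasis peak (rows) in each of the 12 libraries (columns), counted in the gene body or within 5 kb. Adam12, Adam5, Adam32 and Adamts6 have peaks in all 6 homeostasis lists, and every damage column is 0.

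The regions themselves were compared with those of all protein-coding genes. The family held 35 homeostasis regions, 15 found in a single list and 20 in 2 or more. Of the 15, 10 (66.7%) came from H2AK119ub replicate 2, as did 62.1% of the single-list regions of all protein-coding genes. Peaks of both antibodies were listed at 17 of the 20 regions (85%, exact 95% interval 62.1 to 96.8%), against 86.3% of 3381 regions of all protein-coding genes. A region in 4 or more lists has both in any case, as each antibody has 3 lists. Only the 8 family regions in 2 lists and the 3 in 3 lists could have differed. The Input libraries were not analysed, so signal that does not depend on the antibody was not separated. Of the 3 regions without both antibodies, 1 was found with BMI1 alone, in Adam12, and 2 with H2AK119ub alone, in Adamts16 and Adamts17. All 6 lists shared 5 of the 20 regions (25.0%, interval 8.66 to 49.1%), against 14.1% among all protein-coding genes. Both intervals contain the value of all protein-coding genes, so no difference could be shown with this number of regions. The intervals cover only the counting of regions and take regions of the same gene as independent. Regions of Adam12, for which the family was put forward, are included, also among those in all 6 lists. These shares were not repeated without Adam12. Of the 20 regions 18 lay in a gene body (90%, against 84.6% for all protein-coding genes) and 4 within 5 kb of a gene end (20.0% against 26.4%). Within 1 kb of a gene end were 2, the region beyond Adam5 and the one at Adam34. The median distance from the nearer gene end was 28.2 kb, against 25.6 kb. None of the family's regions overlapped an annotated tRNA or 5S ribosomal RNA gene.

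After paraquat no ADAM or ADAMTS gene had a peak: each of the 53 genes held 0 peaks in all 6 Damage lists. The background was 62 of all protein-coding genes (0.283%) with a peak in any Damage list. The Damage lists hold 215 peaks on assembled chromosomes, which at the family's homeostasis share of 0.201 to 0.251% of peaks would give 0.432 to 0.540 peaks in the family. A count of 0 of 215 allows a share of up to 1.40% (3 counts of the total), so a change in the share of peaks that fall on these genes was not detectable at this depth. All 3 Homeostasis libraries exceeded all 3 Damage libraries for 5 genes with BMI1, namely Adam5, Adam12, Adam23, Adam32 and Adamts6, against a background of 4.42%. For H2AK119ub this held for 4, Adam5, Adam12, Adam32 and Adamts6, against 2.91%, and for 10 without Homeostasis H2AK119ub replicate 1. Since every Damage count was 0, these are simply the genes with a peak in all 3 Homeostasis libraries. The counts add nothing on treatment, and Adam12 is among them. These backgrounds are not matched for length. Set against the length classes, the ratio with 3 of 3 libraries was 1.18 for BMI1 and 1.44 for H2AK119ub. A loss of the mark is not shown by these counts, since the Damage lists are short over the whole genome (19 to 68 peaks) and depth is unknown. In a sorted population, fewer cells carrying the mark, less of the mark per cell and a lower yield of the libraries cannot be told apart.

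The difference in peaks per library between treatments was also tested for each gene with a peak in any library, by exact permutation of the treatment within each antibody, two-sided. Over all such genes 555 of 4247 (13.1%) had an adjusted p under 0.05 (Benjamini-Hochberg), and 4 of the 20 ADAM and ADAMTS genes with a peak were among them. One of the 4 was Adam12, whose homeostasis peaks led to the choice of the family, so its call is no test. The others were Adam5, Adam32 and Adamts6, each with a peak in all 6 homeostasis lists and none after damage (exact permutation p = 0.005, adjusted p = 0.0383). The family was chosen from the same homeostasis lists, and genes were tested only if a list held a peak in them, so nothing is read from these calls either. The calls of the exact permutation test were lost when p-values were adjusted over all 21887 protein-coding genes (smallest adjusted p = 0.197). They were also lost when any 1 of the 3 Damage H2AK119ub libraries was left out (smallest adjusted p = 0.0582 to 0.0583, exact permutation test).

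Genes that act with the ADAM and ADAMTS proteases were examined in 7 lists of 68 genes. Of these, 7 had a BMI1 and 7 an H2AK119ub peak in 2 or more homeostasis libraries, against 5.60 and 7.34 at the rate of their length classes, and they were the same 7 genes. None had a peak after damage. Of the inhibitors (4 tissue inhibitors of metalloproteases and Reck), only Timp2 had peaks, in 4 of the 6 homeostasis lists, where the rate of their length classes gives 0.299 and 0.415 genes. Of the ADAMTS-like genes and relatives, 1 of 8 met the rule (1.21 and 1.52 at the rate of their length classes), Adamtsl1, with 1, 3 and 0 BMI1 peaks and 0, 6 and 2 H2AK119ub peaks over 915 kb. None of the 4 proteoglycan substrates Acan, Vcan, Bcan and Ncan had a homeostasis peak, where that rate gives 0.300 and 0.429 genes in 2 or more libraries.

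Among 18 ligands and receptors shed by ADAM proteases, 3 met the rule with both antibodies, against 1.84 (BMI1) and 2.40 (H2AK119ub) at the rate of their length classes. Nrg1, which encodes neuregulin 1, a growth factor for cardiomyocytes, held 1, 2 and 2 BMI1 peaks and 1, 4 and 5 H2AK119ub peaks over 1084 kb, 0.752 and 1.08 times the numbers given by its length. Cdh2, the gene of N-cadherin, held 2, 2 and 1 BMI1 peaks and 0, 2 and 2 H2AK119ub peaks. Tgfa, the gene of transforming growth factor alpha, had 1 peak in each of 4 lists. No peak was listed in Notch1, Notch2, Notch3, Notch4, Hbegf or Tnf.

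The 4 LGI genes, whose secreted products bind the neural ADAMs, would hold 0.180 (BMI1) and 0.242 (H2AK119ub) genes that meet the rule at the rate of their length classes. Of these, Lgi1 and Lgi4 met it and had 1 peak in each of 5 lists, all but H2AK119ub replicate 1. Lgi4 is a short gene, and 193 of the 200 genes nearest in length had fewer homeostasis peaks. None of 10 regulators of ADAM10 and ADAM17 and none of 19 matrix metalloproteases met the rule. The rate of their length classes gives 0.762 and 1.01 genes for the regulators (BMI1 and H2AK119ub) and 1.01 and 1.32 for the metalloproteases, so counts of 0 are near what length gives.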

How the data were processed

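Peak lists of 12 ChIP-seq libraries were used, in 4 groups of 3 by treatment and antibody; the 2 Input libraries were not analysed here. Per the submitters' processing notes, the authors used Bowtie2 and HOMER 4.8 on GRCm38, while settings of the peak calling were not given in the sources used. The lists deposited by the authors give peak positions (other values) and a score, which is 1 for every peak and ranks nothing, so depth is unknown. Homeostasis peaks of both antibodies were 101 to 201 bp wide, and 95.0 to 98.0% of those in each list were exactly 101 bp. Peaks off the assembled chromosomes (143 of 39832) were left out of gene counts. Gene boundaries are RefSeq's on GRCm38.p6, and start windows from RefSeq sequences of that build, of which 706 of 706 overlapping pairs on opposite strands matched as reverse complements.

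Peaks were counted per gene (body and 5 kb, overlap of 1 bp). Length was treated by 10 classes of protein-coding genes, by the 200 genes nearest in length, and by list size times covered length. Peaks of the 6 homeostasis lists that overlapped were merged into regions. Treatment was compared per gene by an exact permutation test (400 arrangements, smallest p 0.005), adjusted by Benjamini-Hochberg over genes with a peak in any list; libraries of different antibodies were taken as independent. P-values measure the spread between these libraries, which may be technical. The family, its role groups and the gene lists were chosen with earlier results of these data known. The genes named were those with a peak in 2 or more of 3 homeostasis libraries, those with a Damage peak, a fixed set of 17 well known members, and up to 4 genes per related list; regions were those in 5 or more homeostasis lists. Other members and regions were named after their values were seen, to account for each group. Of the 25 symbols in the sperm and testis group, 3 (Adam36, Adam37 and Adam38) were not matched in the table. Python 3.11.15, numpy 2.4.6, pandas 2.3.3, scipy 1.17.1 and matplotlib 3.10.9 were used, and procedures were tested on simulated data. Alternatives were other windows, library rules, length classes, overlap rules, scales of the count, the replicate block and leaving out each library.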

Additional observations from a re-analysis of the deposited data

How the results depend on the processing

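With a peak required in 3 of 3 libraries, 5 genes of the family had a BMI1 and 4 an H2AK119ub peak, and with 1 or more required, 14 and 18. Leaving out 1 library gave 5 to 7 genes for BMI1 and 4 to 10 for H2AK119ub. The ratio to the length-class number for H2AK119ub was 1.22 with the 200 nearest genes, 1.32 with a window of 10 kb and 1.19 with the gene body only. It was 1.44 with 3 of 3 libraries and 1.17 to 1.40 without 1 library. For BMI1 these ratios were 1.29, 1.31 and 1.34, then 1.18 and 1.13 to 1.27, in the same order. The BMI1 values stayed within the spread between libraries, which was wider for BMI1 (SD 0.200 against 0.0545). Adam12 is counted in all of these ratios. Regions in 3 or more lists were shared by both antibodies in 100% of 12. Each antibody has 3 lists, so a region in 4 or more lists has both in any case. Only the 3 regions in exactly 3 lists could have come out otherwise.

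The 4 treatment calls became 0 with adjustment over all protein-coding genes, chosen after seeing the data, and 0 to 5 when 1 library was left out. With the replicate number as a block (swaps within pairs of the same antibody and number, 64 arrangements) the count was 0 in the family and 0 over all genes, since the smallest p is then 0.0312 (4 genes of the family at an unadjusted exact permutation p under 0.05). The numbers share no stated source. Same-numbered libraries had correlations of -0.0784 to 0.189 over 18 pairs, 3 above 0.1. All 3 were BMI1 with H2AK119ub of the same treatment: Homeostasis 1 (0.163), Homeostasis 2 (0.189) and Damage 1 (0.119). The other pairs of this kind gave 0.0229 (Damage 2), 0.0275 (Damage 3) and -0.0784 (Homeostasis 3). Whether libraries of both antibodies share chromatin is not stated and was not tested. Genes not overlapping between treatments numbered 4 to 10 for H2AK119ub without 1 library, the 10 without Homeostasis replicate 1. Of the values of single genes, 146 of 150 moved by no more than the spread between libraries (SD). Leaving out 1 of 3 libraries cannot move a mean by more than the SD of the 3. Those settings could thus not have come out otherwise, and only the changes of window could. The 4 values that moved by more were those of Adam5 without its flank and of Adam9 with 10 kb, for both antibodies. The cause of these shifts was not tested. Depth is unknown, and the Damage lists are too short to compare single genes.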

Other observations

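Genes of the sort and of cell types that the heart holds were looked up in the same lists, as values. Ly6a, which encodes Sca1, and Ptprc, which encodes CD45, were without a peak in all 12 lists. Pdgfra, a receptor of stromal cells, had a peak in all 6 homeostasis lists, 1, 1 and 1 with BMI1 and 1, 2 and 1 with H2AK119ub, and 199 of the 200 genes nearest in length had fewer. Ryr2, the cardiomyocyte calcium release channel, held 2, 2 and 1 BMI1 peaks and 2, 3 and 2 H2AK119ub peaks over 554 kb. Pecam1, an endothelial adhesion gene, and Myh11, the smooth muscle myosin heavy chain gene, had peaks in 4 homeostasis lists each. None of these 6 genes had a peak after damage.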
